A study of Mus musculus with 8 samples.

Results

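NF-kB is a family of transcription factors held in the cytoplasm of resting cells by inhibitor proteins and released to the nucleus when receptors for cytokines or microbial products, or sensors of nucleic acids, signal through the IkB kinases. Part of what NF-kB switches on feeds back on the pathway itself, since the inhibitor IkBa and the ubiquitin-editing enzyme A20 are among its best known targets, and in fibroblasts it also raises adhesion molecules, chemokines and survival genes. The 10 genes described here are 4 subunits (Rela, Relb, Nfkb1 and Nfkb2), 2 feedback inhibitors (Nfkbia, which encodes IkBa, and Tnfaip3, which encodes A20), 2 adhesion molecules (Icam1 and Vcam1) and 2 genes of survival signalling (Birc3, which encodes cIAP2, and Traf1). They were taken by name from the table of 24972 genes, which lists all 10, and the question is whether they move with the interferon response of these cells. Of the 10, 9 reached the mean level of 10 normalized counts over the libraries that was needed for a test, as did 13267 genes in all; Traf1 did not and is given by its values.

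The samples were untreated primary mouse embryonic fibroblasts (MEFs), cultures grown out of embryos of day 14.0 and kept in medium with 10% serum over 2 passages. There were 4 genotypes with 2 libraries each, 8 in all: wild type (WT), Tfam+/- with 1 of its Tfam alleles lost, Zbp1-/- without Zbp1, and the double mutant Tfam+/-Zbp1-/-. The Tfam protein binds and compacts mitochondrial DNA and starts its transcription. The Zbp1 protein senses left-handed nucleic acid. No source used here gives the mouse strain, the design of the alleles or whether replicate libraries stem from different embryos, so p-values measure the spread between libraries, which may be technical.

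The stretches upstream of the genes are shown for the 4 members whose promoter held a kappa B-like element, the sequence that NF-kB binds, so that the elements can be set beside the values of these genes. Sequences are from RefSeq on build GRCm38.p6, read 5′ to 3′ on the strand of the gene, and 7 of the 10 members matched an entry (Nfkb1, Relb and Vcam1 did not). Capitals mark each match, on either strand, to the 10-base kappa B consensus or to the shorter core GGANNTTCC, which can overlap it; the core was added after the sequences had been read. Tnfaip3 has matches starting 125, 24 and 12 bases before its transcription start, at chr10:19015411-19015540 on the minus strand; the window before its other annotated start, which is not shown, held neither.
Tnfaip3: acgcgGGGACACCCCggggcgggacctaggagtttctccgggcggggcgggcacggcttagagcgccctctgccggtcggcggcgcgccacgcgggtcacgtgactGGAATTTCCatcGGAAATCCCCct
Nfkbia has matches 178 and 29 bases before its start, at chr12:55492648-55492827 on the minus strand.
Nfkbia: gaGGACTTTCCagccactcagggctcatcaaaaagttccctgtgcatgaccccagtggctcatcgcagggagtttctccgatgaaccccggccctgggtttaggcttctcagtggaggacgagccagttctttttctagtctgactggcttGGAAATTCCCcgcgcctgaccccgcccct
Icam1 has the shorter core 153 bases before its start, at chr9:21015780-21015939 on the plus strand.
Icam1: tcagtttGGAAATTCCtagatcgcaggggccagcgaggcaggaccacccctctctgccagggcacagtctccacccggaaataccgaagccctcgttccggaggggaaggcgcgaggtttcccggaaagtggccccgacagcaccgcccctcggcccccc
Nfkb2 has 3 annotated starts on the plus strand, and 30-base pieces around its matches are shown. The pieces before the first start are chr19:46304688-46304717 and chr19:46304707-46304736, with matches from 39 and 11 bases before it; they share bases, and the capitals that open the second piece end the first match.
Nfkb2 start 1, upstream piece: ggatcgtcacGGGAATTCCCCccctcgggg
Nfkb2 start 1, downstream piece: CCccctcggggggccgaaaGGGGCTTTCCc
The pieces for the other starts are chr19:46305449-46305478 and chr19:46305695-46305724, with matches 236 and 225 bases before those starts.
Nfkb2 start 2: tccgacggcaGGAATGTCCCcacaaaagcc
Nfkb2 start 3: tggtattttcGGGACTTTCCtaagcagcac
The windows of Rela, Birc3 and Traf1 held neither.

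Over windows of 250 bases before the start, the consensus was in 3 of the 7 members with an entry (Tnfaip3, Nfkbia and Nfkb2) and in 8.23% of 27025 genes. The core GGANNTTCC was in 4 of the 7, those 3 and Icam1, and in 4.12% of genes. It was added after these sequences had been read, so its count in the members cannot be read as enrichment. Nor can the count of the consensus, since the members were chosen by name and include known NF-kB targets. The element bound by interferon-activated factors (TTTC, any 2 bases, TTTC; both strands) was in 0 of the 7 and in 3.46% of genes. A match is a run of letters, not a shown binding site.

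Library totals were 16752835 to 18303036 normalized counts, with 16051 to 16261 genes above 0. Replicates were closest in WT and Tfam+/-Zbp1-/- (Pearson r across tested genes 0.992 in each) and farther apart in Tfam+/- (0.973) and Zbp1-/- (0.975). Tfam+/- replicate 1 and Zbp1-/- replicate 2 stood apart in the same direction: the replicate differences of those genotypes, taken as replicate 1 minus replicate 2, had a correlation of -0.70 across genes. Each comparison is therefore also given with a term shared by these 2 libraries and from the 6 other libraries; these libraries were known from earlier results of these data. Tfam had 629 and 610 normalized counts in WT, against 278 and 365 for Tfam+/-, 675 and 471 for Zbp1-/- and 424 and 375 for the double mutant. Zbp1 had 7.34 and 3.19 in WT, against 64.6 and 69.8 for Tfam+/-, 3.79 and 1.03 for Zbp1-/- and 0.862 and 2.69 for the double mutant; its low level in WT makes it a weak check of the Zbp1-/- label. Of 10 fibroblast markers, 10 passed a mean of 10, with a sum of 500520 to 737090. All 12 leukocyte and macrophage markers, Ptprc and Csf1r among them, also passed and none was at 0. Their sum was 5513 to 5523 in WT, 6443 to 7485 in Tfam+/-, 3448 to 3534 in Zbp1-/- and 2796 to 2810 in Tfam+/-Zbp1-/-. Of the endothelial, epithelial, skeletal muscle and neural lists, 5 of 8, 3 of 6, 2 of 6 and 5 of 6 markers passed. None of their markers was at 0 in all libraries, but some lay near it, such as Myod1 (mean 0.123) and Tie1 (0.247). The sums of these lists ran from 374 to 533, 186 to 493, 608 to 1770 and 689 to 1564.

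Divided by the length of the merged exons, the levels spanned a wide range, given here as the mean over all 8 libraries in normalized counts per kilobase. Vcam1, a receptor for leukocyte integrins, had 368 (324 to 451 over libraries), and Rela, the transactivating subunit p65, had 356 (302 to 431). Nfkbia followed at 220 (165 to 288) and Nfkb2, which encodes p100, the precursor of p52, at 195 (164 to 264). Icam1, the ligand of leukocyte LFA-1, had 139 (109 to 219), and Nfkb1, which encodes p105, the precursor of p50, had 115 (107 to 122). Relb, the partner of p52 in the non-canonical pathway, had 60.7 (43.3 to 86.5), and Birc3, a ubiquitin ligase of the TNF receptor complex, had 58.2 (47.4 to 67.2). Tnfaip3 had 17.6 (14.1 to 25.3) and Traf1, a receptor adaptor, 0.564. The ranges of Vcam1 and Rela overlapped, as did those of Nfkbia and Nfkb2, of Nfkb2 and Icam1, of Icam1 and Nfkb1, and of Relb and Birc3. These ranges pool all genotypes, and the genes of a pair were not compared within each library. Overlap therefore does not show that a pair had no steady order. Merged exons join all annotated transcripts of a gene (12061 bases for Nfkb1, 3072 for Rela) and can be longer than the transcript present. The order between genes is therefore approximate. On this scale the untreated cells held much more transcript of subunits and of Vcam1 than of Tnfaip3.

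The interferon response was the reference for these genes. Usp18, which removes ISG15 from proteins, had 26.4 and 21.3 normalized counts in WT, against 761 and 625 for Tfam+/-, 35.3 and 44.9 for Zbp1-/- and 59.5 and 71.6 for the double mutant. Irf7, a transcription factor of the type I interferon loop, had 29.0 and 44.9, 475 and 347, 51.7 and 73.2, and 67.3 and 82.3 in the same order. Both genes were therefore highest in both Tfam+/- libraries, with no overlap with any other genotype. Of 38 interferon-stimulated genes, 32 rose in Tfam+/- against WT and 33 fell in Tfam+/-Zbp1-/- against Tfam+/- (limma, Benjamini-Hochberg adjusted p under 0.05). The first count was 10 without either WT library and the second was 3 without either Tfam+/-Zbp1-/- library. In bulk RNA, fewer cells of a type and less RNA per cell cannot be told apart, here and in all comparisons that follow.

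The subunits had a narrower range. Rela (chromosome 19, 5637442 to 5648134) had 1021 and 928 normalized counts in WT, against 1325 and 1002 for Tfam+/-, 1044 and 1311 for Zbp1-/- and 1092 and 1027 for the double mutant. Its 2 highest libraries were Tfam+/- replicate 1 and Zbp1-/- replicate 2, and the other 6 lay between 928 and 1092. Relb (chromosome 7, 19606217 to 19629438) had 168 and 177 in WT, against 336 and 215 for Tfam+/-, 239 and 291 for Zbp1-/- and 225 and 237 for the double mutant. Both WT libraries were the lowest for Relb, so each mutant genotype lay above WT without overlap. Nfkb1 (chromosome 3, 135584655 to 135691969) was the steadiest, with 1315 and 1290 in WT, against 1473 and 1400 for Tfam+/-, 1383 and 1423 for Zbp1-/- and 1360 and 1406 for the double mutant. Nfkb2 (chromosome 19, 46300994 to 46312400) had 780 and 754 in WT, against 1211 and 864 for Tfam+/-, 885 and 1137 for Zbp1-/- and 756 and 751 for the double mutant. Thus Nfkb2 was higher in both single mutants than in WT, without overlap, and the double mutant lay in or just under the WT range. The exons of Nfkb2 overlap those of Psd and AC114539.1 on the opposite strand, and whether counting used strand is not given, so reads of these genes cannot be told apart.

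None of the 4 subunits passed the test in any comparison with all 8 libraries. Relb had the largest difference from WT among them in both single mutants, with a log2 change of 0.64 ± 0.22 (SE; adjusted p = 0.471, limma) in Tfam+/- and 0.61 (adjusted p = 0.215) in Zbp1-/-. For Nfkb2 these were 0.42 ± 0.19 (adjusted p = 0.559) and 0.39 (adjusted p = 0.301). The Relb values of the Tfam+/- pair differed 1.56-fold and those of Nfkb2 1.40-fold, gaps matched or passed by 17.9% and 31.9% of tested genes in that pair.

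The feedback inhibitors parted. Nfkbia (chromosome 12, 55489409 to 55492647) had 266 and 306 normalized counts in WT, against 463 and 357 for Tfam+/-, 336 and 401 for Zbp1-/- and 295 and 403 for the double mutant. Both single mutants lay above WT for Nfkbia, and the double mutant overlapped all 3 other genotypes; its pair differed 1.37-fold, a gap reached by 5.12% of tested genes there. Tnfaip3 (chromosome 10, 19000910 to 19015410) had 133 and 112 in WT, against 164 and 183 for Tfam+/-, 107 and 109 for Zbp1-/- and 107 and 102 for the double mutant. Both Tfam+/- libraries were the highest for Tnfaip3 and all libraries lacking Zbp1 lay under WT, an order unlike that of the other members.

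Tnfaip3 was the only member that passed the test in any comparison with all 8 libraries. It fell in Tfam+/-Zbp1-/- against Tfam+/-, from 173 ± 13.1 (SD, n = 2) to 104 ± 3.23 normalized counts, a fold of 0.605 and a log2 change of -0.73 ± 0.15 (limma adjusted p = 0.0385). Against WT, Tfam+/- was higher by 0.50 ± 0.15 on the log2 scale, which did not pass (adjusted p = 0.351). The call held in 9 of 18 alternative settings, with log2 changes of -0.84 to -0.65 and adjusted p of 4.67e-04 to 0.277. It was lost without any 1 WT, Tfam+/- or Tfam+/-Zbp1-/- library: adjusted p was 0.0890 and 0.0876 without WT replicates 1 and 2, 0.0726 and 0.0770 without those of Tfam+/- (log2 -0.80 and -0.65), and 0.236 and 0.277 without those of Tfam+/-Zbp1-/- (log2 -0.76 and -0.69). The leukocyte and macrophage markers moved in the same comparison: 11 of 12 fell, and their sum went from 6443 to 7485 to 2796 to 2810. Other marker sums were lower there too: epithelial markers went from 326 to 493 in Tfam+/- to 186 to 187 (2 of 6 fell), skeletal muscle markers from 1244 to 1770 to 608 to 618 (1 of 6 fell) and endothelial markers from 492 to 533 to 394 to 400 (1 of 8 fell). Only 3, 2 and 5 markers of these lists passed a mean of 10, and those of skeletal muscle were Des and Acta1. The endothelial marker Tek went the other way, from 25.1 and 49.5 to 89.0 and 89.4. The endothelial sum therefore does not stand for each marker of its list. Whether the number of cells of any type differed was not tested. The part of any of these marker sums in the Tnfaip3 result was not tested. The 2 tested genes with the pattern nearest to Tnfaip3 over the 8 libraries were Gpr176 and Pla2g7, with Pearson r of 0.972 and 0.970.

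**Figure D1:**
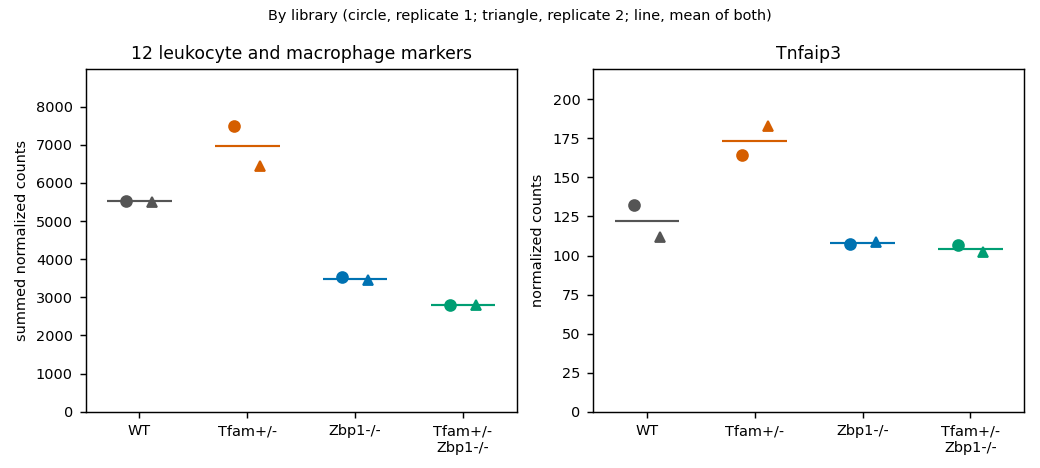
Summed normalized counts of 12 leukocyte and macrophage markers (left) and normalized counts of Tnfaip3 (right) in each library by genotype; circles are replicate 1, triangles replicate 2 and lines the mean of both. Both panels are highest in Tfam+/- (6443 to 7485 for the markers, 164 and 183 for Tnfaip3) and low in both genotypes lacking Zbp1.

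The adhesion molecules did not follow a common order. Icam1 (chromosome 9, 21015940 to 21028814) had 509 and 494 normalized counts in WT, against 649 and 513 for Tfam+/-, 741 and 956 for Zbp1-/- and 476 and 495 for the double mutant. It was highest in both Zbp1-/- libraries, which overlapped no other genotype, and the double mutant lay around WT. Icam1 differed by a log2 change of 0.75 in Zbp1-/- against WT (limma adjusted p = 0.107), and the double mutant differed from Zbp1-/- by -0.79 (adjusted p = 0.137), neither of which passed. Marker sums that were also highest in Zbp1-/- were those of the neural and Schwann list (1194 to 1564, against 945 to 968 in WT and 689 to 711 in the double mutant, with Ngfr called in both comparisons) and of the fibroblast list (629360 to 737090, against 534970 to 536540 and 567140 to 574250). Their part in the Icam1 values was not tested. Vcam1 (chromosome 3, 116110020 to 116129688) had 3244 and 3221 in WT, against 3258 and 4001 for Tfam+/-, 3658 and 2992 for Zbp1-/- and 2892 and 2874 for the double mutant. Both double-mutant libraries were the lowest for Vcam1. Its high libraries were Tfam+/- replicate 2 and Zbp1-/- replicate 1, the opposite replicates from those high for Rela, Relb and Nfkb2. Exons of Icam1 and Gm47079, and of Vcam1 and Gm43109, overlap on opposite strands, so their reads cannot be told apart either.

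The survival genes were low or near level. Birc3 (chromosome 9, 7847468 to 7873205) had 294 and 251 normalized counts in WT, against 293 and 336 for Tfam+/-, 322 and 304 for Zbp1-/- and 237 and 293 for the double mutant. Zbp1-/- lay above WT for Birc3 without overlap, and the other genotypes overlapped WT. Traf1 (chromosome 2, 34941750 to 34961812) had 3.83 and 1.82 in WT, against 7.08 and 4.87 for Tfam+/-, 8.95 and 5.68 for Zbp1-/- and 2.77 and 4.79 for the double mutant. Both single mutants lay above WT, and the double mutant lay below them and overlapped WT, at levels of a few reads in which counting error is large.

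**Figure D2:**
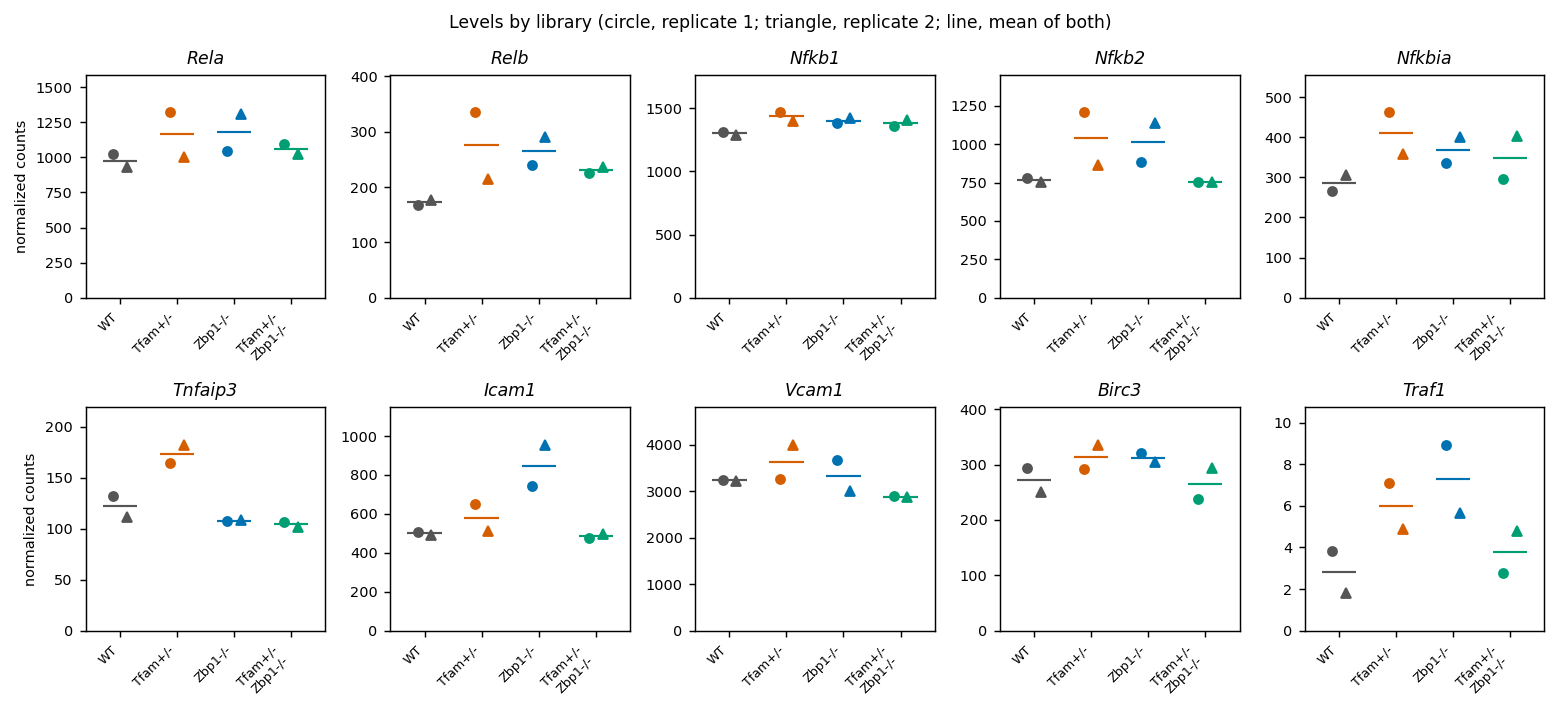
Normalized counts of the 10 genes in each library by genotype; circles are replicate 1, triangles replicate 2 and lines the mean of both, and each panel starts at 0 with its own scale. Tnfaip3 is highest in Tfam+/- (164 and 183), Icam1 in Zbp1-/- (741 and 956), and Rela, Relb and Nfkb2 peak in Tfam+/- replicate 1 and Zbp1-/- replicate 2.

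In Tfam+/- against WT, which asks what losing 1 Tfam allele does, 0 of 9 members passed, where 0.731% of tested genes did. At an unadjusted p under 0.05 there were 3 of 9, against 8.74% of all. All 9 log2 changes were above 0, with a median of 0.24 (0.14 to 0.64) beside -0.01 for all tested genes. Without overlap, 7 of the 9 were higher in both Tfam+/- libraries, the exceptions being Rela and Birc3, as were 23.3% of tested genes. The members' changes were small beside the interferon-stimulated genes, whose median was 2.59 in the same comparison.

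The comparison of Tfam+/-Zbp1-/- with Tfam+/- asks what losing Zbp1 does where a Tfam allele is lost. Here 1 of 9 (Tnfaip3) fell, where 5.64% of tested genes passed and 2.32% fell. At an unadjusted p under 0.05 it was also 1 of 9, against 20.8%. All 9 changes were below 0, with a median of -0.25 beside 0.14 for all tested genes and -1.83 for the interferon-stimulated genes. Tnfaip3, Nfkb2, Icam1 and Vcam1, 4 of the 9, were lower without overlap, as were 13.5% of tested genes. This comparison and the one against WT share the Tfam+/- libraries, so their opposite signs are not independent. The all-gene median of 0.14 came to 0.03 once libraries were rescaled by trimmed means of M-values (TMM), which removes such a shift, and the members' median was then -0.37.

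In Zbp1-/- against WT, 0 of 9 passed, where 1.06% of tested genes did; at an unadjusted p under 0.05 there were 2 of 9, against 19.7%. Here 8 of 9 changes were above 0, with a median of 0.27 beside 0.11 for all tested genes, and Tnfaip3 was the exception at -0.17. Without overlap, 7 of 9 were higher, as were 42.1% of tested genes, and 1 (Tnfaip3) was lower, as were 16.8%. After rescaling, the members' median was 0.15 and the signs of Nfkb1 (-0.01) and Vcam1 (-0.08) turned. Among the 38 interferon-stimulated genes the median was 0.39 with 0 called here, beside 2.59 in Tfam+/-. The members' median in Zbp1-/- and in Tfam+/- was 0.27 and 0.24 as deposited, 0.15 and 0.25 after rescaling, 0.18 and 0.28 with the shared term and 0.21 and 0.31 from 6 libraries. The difference between the lists was not tested.

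Against Zbp1-/-, the double mutant had 0 of 9 members called, where 0.415% of tested genes were, and 1 of 9 at an unadjusted p under 0.05, against 12.3%. All 9 changes were below 0, with a median of -0.19 beside 0.02 for all tested genes, and 6 of 9 were lower without overlap, as were 23.3%. The interferon-stimulated genes lay on the other side of 0, at a median of 0.30. Against WT, it had 0 of 9 called, where 1.38% were, and 0 of 9 at an unadjusted p under 0.05, against 12.6%. The members' median was -0.02 beside 0.12 for all tested genes. Nfkb1, Rela and Relb were higher than WT without overlap, as were 58.8% of tested genes, and Tnfaip3 and Vcam1 were lower, as were 14.1%.

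The interaction subtracts the Tfam+/- minus WT difference from that of the double mutant minus Zbp1-/-, and tests whether a Tfam allele counts for the same with and without Zbp1. None of the 9 passed, where 0.663% of tested genes did, and at an unadjusted p under 0.05 there were 4 of 9, against 16.0%. All 9 estimates were below 0, with a median of -0.56 beside 0.00 for all tested genes. Icam1 had the largest at -0.99 ± 0.24 (limma adjusted p = 0.140), followed by Relb at -0.83 ± 0.31 (0.297) and Nfkb2 at -0.83 ± 0.27 (0.255). The smallest was Nfkb1 at -0.16 (adjusted p = 0.448). For 5 of the 9, both Tfam+/- libraries lay above WT and both double-mutant libraries below Zbp1-/-, as for 7.67% of tested genes. Among the 38 interferon-stimulated genes 20 were called below 0, with a median of -2.12; this count was 0 without either WT library, without either Tfam+/-Zbp1-/- library or without Zbp1-/- replicate 2, 12 without Tfam+/- replicate 1 and 13 without Zbp1-/- replicate 1.

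Because Rela, Relb and Nfkb2 peaked in the 2 libraries that stood apart, the members were also fitted with the term those libraries share. The pairs of Tfam+/- and Zbp1-/- then add little to the estimate of the spread, so many more genes are called. In either direction, 15.6% of tested genes were called in Tfam+/- against WT, 45.6% in Tfam+/-Zbp1-/- against Tfam+/- and 35.6% in Zbp1-/- against WT. For Tfam+/-Zbp1-/- against Zbp1-/-, against WT and for the interaction the shares were 23.8%, 42.5% and 16.9%. The members' counts are read against these and against the shares in the direction given. The 4 of 9 called in Tfam+/-Zbp1-/- against Tfam+/- are near the share in either direction. In Tfam+/- against WT, 4 of 9 rose (Relb 0.40, Tnfaip3 0.54, Nfkb2 0.20 and Vcam1 0.31 on the log2 scale), as did 7.39% of tested genes. In Tfam+/-Zbp1-/- against Tfam+/-, 4 of 9 fell (Tnfaip3 -0.76, Vcam1 -0.47, Birc3 -0.32 and Nfkb2 -0.23), as did 10.2%. In Zbp1-/- against WT, 4 of 9 rose (Icam1 0.57, Relb 0.38, Vcam1 0.18 and Nfkb2 0.18), as did 28.5%. The double mutant against Zbp1-/- had 3 of 9 that fell (Icam1 -0.62, Vcam1 -0.35 and Nfkb2 -0.20), as did 11.0%. Relb rose in the double mutant against WT (0.42), as did 35.3%, and Vcam1 fell (-0.17), as did 7.19%. The interaction was below 0 for 4 of 9 (Vcam1 -0.65, Icam1 -0.64, Birc3 -0.59 and Nfkb2 -0.40), as for 8.43%.

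From the 6 other libraries, where Tfam+/- and Zbp1-/- have 1 library each that is assumed to vary like the WT and double-mutant pairs, 2 members were higher in Tfam+/- against WT (Tnfaip3 and Vcam1; 6.98% of tested genes), 4 lower in Tfam+/-Zbp1-/- against Tfam+/- (9.87%), 4 higher in Zbp1-/- against WT (27.2%) and 3 lower in Tfam+/-Zbp1-/- against Zbp1-/- (10.8%). Relb was again higher (37.1%) and Vcam1 lower (7.71%) in Tfam+/-Zbp1-/- against WT, and the interaction was below 0 for 4 (9.14%). These shares are for the direction named, and those in either direction were larger. Tnfaip3 in Tfam+/-Zbp1-/- against Tfam+/- was called with all 8 libraries and with the shared term, at limma adjusted p of 0.0385 and 4.67e-04. Its log2 change from 6 libraries was -0.80. The 2 libraries were picked because they stood apart in these same data, so fits that set them aside narrow the spread by construction. Smaller adjusted p values there are not independent support, and the Tnfaip3 call was lost without Tfam+/- replicate 1 alone. Icam1 in Zbp1-/- against WT went from adjusted p = 0.107 to 2.49e-06 with the shared term, while its log2 change went from 0.75 to 0.57. For Relb the estimate in Tfam+/-Zbp1-/- against Tfam+/- turned from -0.22 to 0.01, and for Rela from -0.12 to 0.06. Leaving out Tfam+/- replicate 1 alone gave 0.10 for Relb and 0.08 for Rela.

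**Figure D3:**
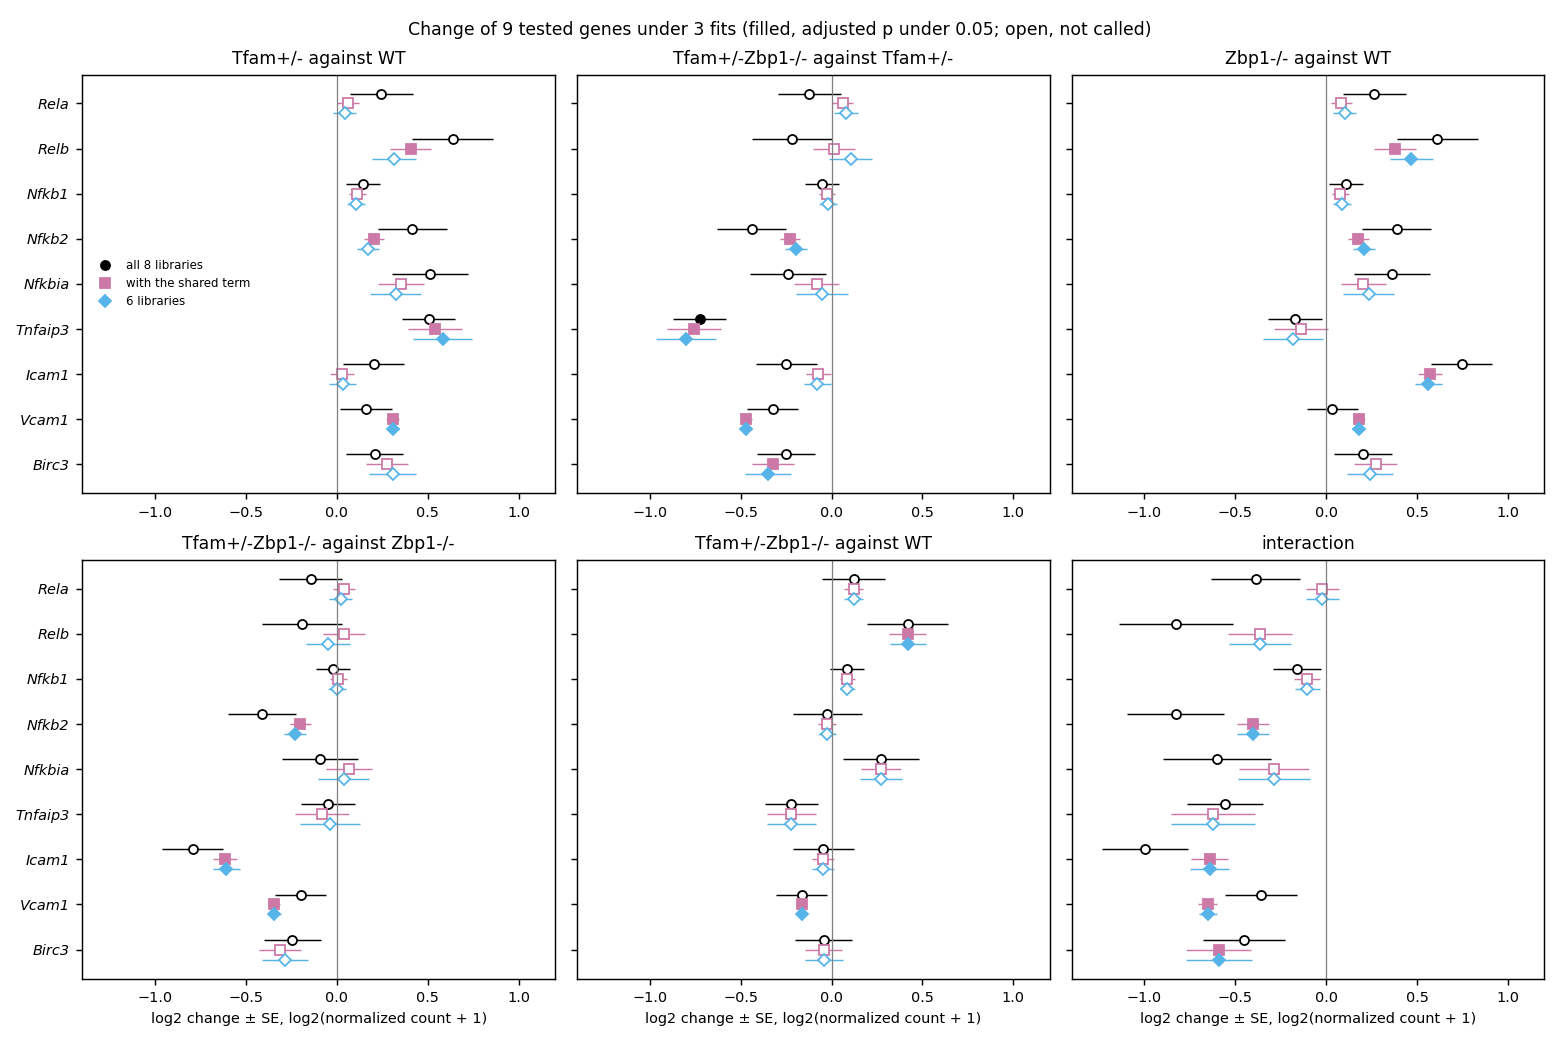
Log2 change with its standard error for the 9 tested genes in 5 comparisons and the interaction, from all 8 libraries (circles), with the shared term (squares) and from 6 libraries (diamonds); filled symbols have a limma adjusted p under 0.05. With all 8 libraries only Tnfaip3 in Tfam+/-Zbp1-/- against Tfam+/- is filled (-0.73), and the shared term narrows the errors and moves Relb and Rela to 0.01 and 0.06 in that comparison.

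Set side by side by library, the members and the interferon genes had different profiles. The median log2 level of the 38 interferon-stimulated genes minus the WT mean was 2.51 and 2.59 for Tfam+/-, 0.36 and 0.40 for Zbp1-/- and 0.59 and 0.72 for the double mutant. For the 9 tested members it was 0.43 and 0.31 for Tfam+/-, 0.21 and 0.43 for Zbp1-/- and -0.02 and 0.08 for the double mutant. As deposited, the members thus stood above WT in both single mutants and near WT in the double mutant. The interferon genes were far higher in Tfam+/- than in the other genotypes. Their median in the double mutant lay above WT and Zbp1-/-. With all 8 libraries, 2 of these 38 were called there against WT, where 1.38% of tested genes were. Against Zbp1-/- it was 0 of 38, where 0.415% were. For 24 tested genes of a wider list of NF-kB targets the same measure was 0.52 and 0.30 for Tfam+/-, 0.05 and 0.16 for Zbp1-/- and 0.11 and 0.05 for the double mutant. The median change against WT over all tested genes was -0.01 for Tfam+/-, 0.11 for Zbp1-/- and 0.12 for the double mutant. Both double-mutant values of the members lay below that shift of 0.12. The list medians describe the lists and were not tested.

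**Figure D4:**
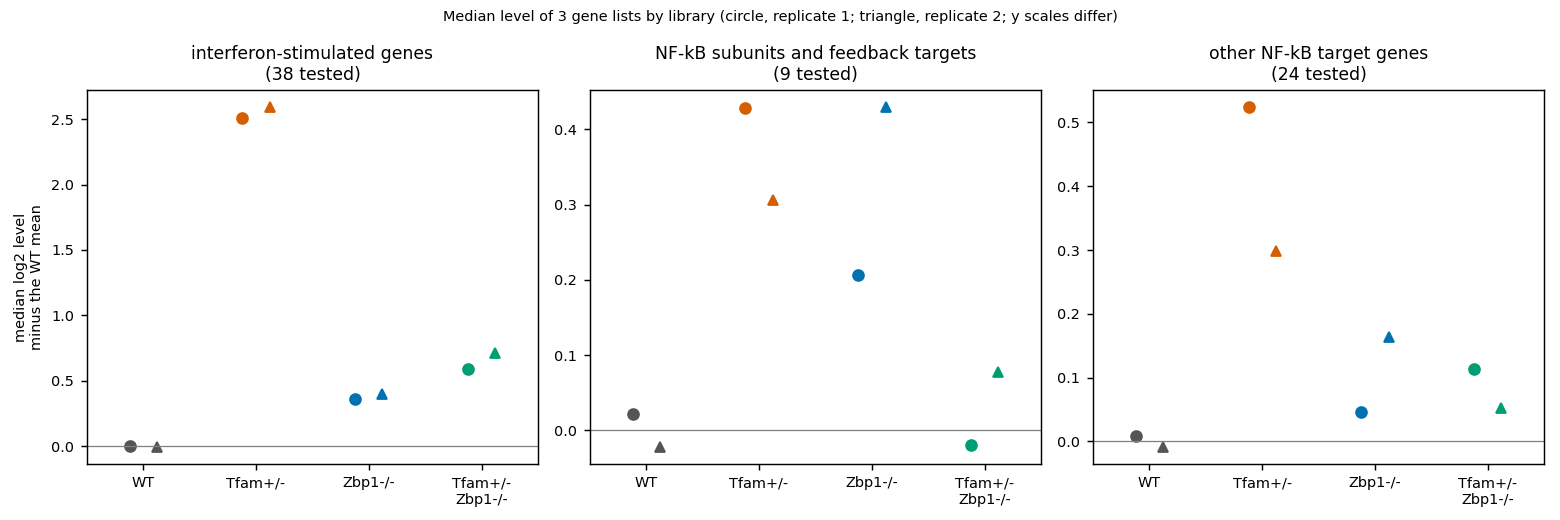
Median over the tested genes of each list of log2(normalized count + 1) minus the WT mean, in each library by genotype; circles are replicate 1 and triangles replicate 2, and the y scales differ. Interferon-stimulated genes reach 2.51 and 2.59 in Tfam+/-, while the 9 NF-kB genes reach 0.43 in both Tfam+/- replicate 1 and Zbp1-/- replicate 2.

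The rest of the pathway was read from lists of receptors, kinases, further subunits and targets. Of 10 kinases and kinase partners, Ikbkb and Ikbkg among them, 10 were tested and 0 passed in any comparison with all 8 libraries; at an unadjusted p under 0.05 there was 1 of 10, in Zbp1-/- against WT, where 19.7% of all tested genes had one. Of 15 further subunits and inhibitors, such as Rel and Bcl3, 15 were tested and 0 passed; at an unadjusted p under 0.05 there were at most 3 of 15, in Zbp1-/- against WT, near that background. Of 17 receptors and adaptors, 17 were tested and 2 passed, both in Tfam+/-Zbp1-/- against Tfam+/-, where 5.64% of all tested genes did. Cd40, a costimulatory receptor also borne by leukocytes, had 82.6 and 65.2 normalized counts in Tfam+/- and 23.9 and 19.0 in Tfam+/-Zbp1-/-, a log2 change of -1.74 ± 0.24 (limma adjusted p = 0.0097). Tnfrsf1b, TNF receptor 2, went the other way, from 515 and 466 to 700 and 706, higher by 0.52 ± 0.11 (log2; adjusted p = 0.0439), which did not pass after TMM rescaling.

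Of 32 further NF-kB targets, 24 were tested. In Tfam+/- against WT, where 0.731% of all tested genes passed, 2 rose and 0 fell: Mmp3, a matrix protease, from 176 and 195 to 355 and 414 (log2 1.04 ± 0.15, limma adjusted p = 0.0394), and Ccl2, a monocyte chemokine, from 769 and 760 to 1589 and 2205 (1.29 ± 0.19, 0.0459). Against Tfam+/-, the double mutant had 5 that fell and 2 that rose, 7 of 24 beside 5.64% of all tested genes. Those that fell were Mmp9, a gelatinase, from 105 and 99.7 to 18.4 and 11.5 (log2 -2.73 ± 0.28), Ccl20 from 61.8 and 89.9 to 18.0 and 25.9 (-1.74 ± 0.27), the macrophage growth factor Csf1 from 6754 and 5648 to 3874 and 3845 (-0.68 ± 0.12), Ccl2 to 931 and 886 (-1.04 ± 0.19), and Bcl2a1b (-1.38 ± 0.26), which has near-identical copies and is uncertain. Ptx3, a soluble pattern receptor, rose from 1082 and 1100 to 2619 and 2544 (1.24 ± 0.10), and Cxcl5, a neutrophil chemokine, from 283 and 438 to 1065 and 1119 (1.63 ± 0.33). Bcl2a1b and Cxcl5 were named after their values were seen, as the remainder of the 7. So the targets called in this comparison moved both ways, with 20 of 24 below 0 and a median of -0.24 beside 0.14 for all tested genes. The leukocyte and macrophage marker sum moved with the 5 that fell, as given above for Tnfaip3, and its part in them was not tested.

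Ptx3 also rose in Zbp1-/- against WT, from 1196 and 1215 to 2138 and 1921 (log2 0.75, limma adjusted p = 0.0294). Its change in the double mutant against WT was 1.10 (adjusted p = 0.01). Mmp3 rose in Zbp1-/- against WT to 368 and 357 (0.96, adjusted p = 0.0438) and had 291 and 240 in the double mutant, with an interaction of -1.50 ± 0.21 (adjusted p = 0.0403). No target passed in Tfam+/-Zbp1-/- against Zbp1-/-, where 6 of 24 had an unadjusted p under 0.05, beside 12.3% of all tested genes. In Tfam+/-Zbp1-/- against Tfam+/- the genes called in all went from 748 to 13 without replicate 1 of the double mutant and to 12 without replicate 2, and were 359 to 874 without any other 1 library. Each of the 9 receptor and target calls in Tfam+/-Zbp1-/- against Tfam+/- was lost without Tfam+/-Zbp1-/- replicate 1 and without replicate 2, with values then of -3.05 and -2.41 for Mmp9, -1.89 and -1.58 for Cd40, and 1.22 and 1.26 for Ptx3. The other 6 of these were also lost without either WT library and, Ccl20 aside, without Tfam+/- replicate 1 (Csf1 and Cxcl5), replicate 2 (Ccl2) or either (Bcl2a1b and Tnfrsf1b). Their values were then -1.99 to -1.49 for Ccl20, -0.68 to -0.55 for Csf1, -1.08 to -0.81 for Ccl2, -1.41 to -1.35 for Bcl2a1b, 1.32 to 1.67 for Cxcl5 and 0.45 to 0.59 for Tnfrsf1b. Ccl2 in Tfam+/- against WT was lost without either WT library, Tfam+/- replicate 2 or either double-mutant library (1.05 to 1.30). In Zbp1-/- against WT, Ptx3 (0.67 to 0.83) and Mmp3 (0.89 to 1.03) were lost without any 1 WT, Zbp1-/- or double-mutant library and after TMM rescaling. Ptx3 in the double mutant against WT was lost without any 1 library of those 2 genotypes (1.08 to 1.12). Both Mmp3 calls in cells with a changed Tfam dose, Tfam+/- against WT (0.93 to 1.15) and the interaction (-1.64 to -1.36), were lost without any 1 of the 8 libraries.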

How the data were processed

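Total RNA of 8 libraries was sequenced. The authors deposited 1 table of normalized counts per gene, a signal that is never negative and not whole. Per the labels' protocols and the design text of the series, reads were aligned to mm10 with RefSeq genes by STAR in RNAseq Alignment 2.0.0 on BaseSpace, and RNA-seq Differential Expression 1.0.0 followed; per the submitters' processing notes STAR was version 2.6.1a and Salmon is also named. No source used here gives the scaling, the counting or its use of strand. In each library 1 low value recurred in 330 to 406 genes. Only 22.2% to 34.9% of values up to 20 such units lay within 0.01 of a whole number. This share was lowest in the 2 libraries that stood apart, Tfam+/- replicate 1 (22.2%) and Zbp1-/- replicate 2 (22.6%). In the others it was 30.4% to 34.9%. What sets those 2 libraries apart was not tested. Whole reads were not recovered, so no count model was run. The depth in reads is unknown, and no counting interval is given.

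Levels were taken as log2(normalized count + 1), so changes of low genes are understated. A gene entered the tests when its 8 libraries averaged 10 or more. limma 3.58.1 in R 4.3.3 (lmFit, eBayes with a mean-variance trend; 4 residual and 2.77 prior degrees of freedom) fitted the 4 genotypes together with no covariate; tests were two-sided, and a call is an adjusted p under 0.05 by Benjamini-Hochberg over the 13267 genes tested. The fit was tested on simulated data with independent noise of equal spread in all genes and changes larger than those of the tested members. That simulation had no deviation shared between libraries, so it does not bear on how reliable the calls here are. With 2 libraries a side no exact permutation test can reach 0.05, so every call rests on the spread limma pools over genes.

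Named genes were the 10 members, called genes of the pathway lists (at most 4 per list and comparison, by adjusted p), Usp18 and Irf7 for the interferon response, and the 2 genes nearest in pattern to each called member; 1 further gene of that rule is not reported here. The members, lists and tests were chosen with earlier results of these data known. The alternatives tried were other pseudocounts (5 and 0.1), no filter or one at a mean of 50, TMM rescaling (trimmed means of M-values, trims of 30% and 5%), no trend, only the genotypes compared, a replicate block, each library left out, the term shared by Tfam+/- replicate 1 and Zbp1-/- replicate 2, and the other 6 libraries. Gene coordinates are from RefSeq on GRCm38.p6 (mm10), 1-based, and exon lengths from GENCODE.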

Additional observations from a re-analysis of the deposited data

Results flagged for a closer look

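For 6 of the 10 genes every Tfam+/- library lay above every WT library while every Tfam+/-Zbp1-/- library lay below every Zbp1-/- library. Of the 9 tested members 5 did so, as did 7.67% of tested genes. The difference itself is the interaction, and with all 8 libraries it did not pass for any of them (limma, Benjamini-Hochberg). It was -0.56 ± 0.21 for Tnfaip3 (adjusted p = 0.295), -0.83 ± 0.27 for Nfkb2 (0.255), -0.83 ± 0.31 for Relb (0.297), -0.99 ± 0.24 for Icam1 (0.140) and -0.36 ± 0.20 for Vcam1 (0.337) on the log2 scale. For Traf1, too low for the test, the fit without a filter gave -1.70 ± 0.62 (adjusted p = 0.343). The Tnfaip3 libraries lacking Zbp1 were all but level, 107 and 109 normalized counts in Zbp1-/- and 107 and 102 in Tfam+/-Zbp1-/-. With the shared term the interaction was called for Nfkb2 (-0.40), Icam1 (-0.64) and Vcam1 (-0.65) among these. In that fit 8.43% of tested genes were called below 0 and 16.9% in either direction. It was not called for Tnfaip3 (-0.62) or Relb (-0.36). The estimates of Nfkb2, Relb and Icam1 were thus smaller than with all 8 libraries. That fit narrows the spread by construction, so its calls are not independent support.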

How the results depend on the processing

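Counts of members called moved mainly with the 2 libraries that stood apart. With the shared term they were 4 in Tfam+/- against WT (15.6% of tested genes called in either direction), 4 in Tfam+/-Zbp1-/- against Tfam+/- (45.6%) and 4 in Zbp1-/- against WT (35.6%). They were 3 in Tfam+/-Zbp1-/- against Zbp1-/- (23.8%), 2 in Tfam+/-Zbp1-/- against WT (42.5%) and 4 in the interaction (16.9%). The count in Tfam+/-Zbp1-/- against Tfam+/- was 0 with no filter on low values, with only the genotypes compared and with the replicate block, and 0 to 1 when each library was left out; in Tfam+/-Zbp1-/- against WT it was 2 of 9 with only the genotypes compared, where 44.7% of tested genes were called. Replicate numbers did not pair the samples: the correlation of replicate differences between genotypes ran from -0.70 to 0.06. With the replicate block Tnfaip3 in Tfam+/-Zbp1-/- against Tfam+/- had an adjusted p of 0.111, and interferon-stimulated genes called were 20 in Tfam+/- against WT, 24 in Tfam+/-Zbp1-/- against Tfam+/- and 0 in the interaction. TMM rescaling moved the split of all calls in that comparison from 440 higher and 308 lower to 324 and 416.

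Of 963 alternative values of single members' changes, 890 kept direction and side of the threshold, 40 gained the call, 9 lost it and 24 turned sign, none of these with a call. Many could not turn, since settings such as no trend or the replicate block leave the log2 change as it is. Only Tnfaip3 in Tfam+/-Zbp1-/- against Tfam+/- had a call to lose, and it held in 9 of 18 settings. The 890 are therefore no measure of how firm the calls are. In Tfam+/-Zbp1-/- against Tfam+/-, Rela was 0.061 with the shared term and 0.079 from 6 libraries, and Relb 0.014 and 0.10; with each library left out Rela ran from -0.32 to 0.079 and Relb from -0.54 to 0.10, the top without Tfam+/- replicate 1. In Zbp1-/- against WT, rescaling gave Nfkb1 -0.0053 and Vcam1 -0.079, and Vcam1 ran from -0.11 (without Zbp1-/- replicate 1) to 0.18. In Tfam+/-Zbp1-/- against Zbp1-/-, the shared term gave Nfkbia 0.066, Nfkb1 0.0082, Rela 0.039 and Relb 0.040, and 6 libraries gave Nfkbia 0.036, Nfkb1 0.0003 and Rela 0.020. With each library left out, Nfkbia ran from -0.32 to 0.13 and Nfkb1 from -0.044 to 0.0035 (both highest without the double mutant's replicate 1), and Rela from -0.31 to 0.020 (highest without Zbp1-/- replicate 2). In Tfam+/-Zbp1-/- against WT, Nfkb1 was -0.026 after rescaling, and Birc3 ran from -0.20 to 0.11, the top without Tfam+/-Zbp1-/- replicate 1. The cause of these turns was not tested. With 2 libraries a genotype, and with the depth in reads unknown, differences of the size seen for most members could not be separated from replicate spread.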
